A study of Homo sapiens with 12 samples.

Results

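A set of 50 genes named as androgen response genes was followed in LNCaP, an androgen-responsive line of human prostate cancer cells. They were chosen as a list of symbols, with earlier results of these data known. A probe on the Illumina HumanHT-12 V4 array was named for 45 of them, and 44 had a probe detected above the negative controls (detection p under 0.05) on at least 3 of the 12 arrays. These 44 stand among 11517 genes measured in the same way, each through its brightest probe. ARHGDIB was on the array but was detected on 0 of 12 arrays. ACSL3, KCNN2, HOMER2, MBOAT2 and SORD had no probe named for them in the annotation used and were not analysed here. The cells were held for 48 h in medium without steroids and then treated for 48 h. There were 4 groups of 3 arrays, so n = 3 in each: vehicle (ethanol and DMSO), the synthetic androgen R1881 at 10 nM, Torin 1 at 100 nM, which blocks the kinase activity of mTOR, and Torin 1 together with R1881 (below, both drugs). Steroid-free medium was common to all 4 groups. Going by its title, the series asks how mTOR takes part in androgen signalling in prostate cancer.

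Androgens act on transcription, largely through enhancers that carry the androgen response element. In prostate epithelium they drive genes of secretion, ion and lipid handling, and lineage identity, and the genes they raise include brakes on the same pathway. mTOR is the kinase core of the complexes that couple nutrients and growth factors to protein synthesis, lipid synthesis and division. Torin 1 is an ATP-competitive inhibitor, so both complexes lose kinase activity.

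The 12 arrays gave between 16681 and 18868 detected probes, and arrays of one group correlated with r of at least 0.9918. The markers of the line were present: HOXB13, FOLH1, KRT8, KRT18 and TMPRSS2 were detected on all 12 arrays. The basal keratins KRT5, KRT14 and KRT15 were detected on 0 arrays. The stromal and immune markers that passed the detection filter were VIM, COL1A1, PTPRC and CD68, and the summed log2 level lay between 7.71 and 8.29 on the 12 arrays for the 2 stromal ones and between 6.26 and 7.26 for the 2 immune ones, whose lowest and highest arrays were both Torin 1 arrays. The endothelial gene VWF was detected on all 12 arrays, at group means of 7.20 with vehicle, 6.02 with R1881, 6.05 with Torin 1 and 5.09 with both drugs, while PECAM1 and CDH5 were detected on none. The part of VWF in any result below was not tested. Whether the 3 arrays of a group came from separate cultures is not stated, so the p-values measure only the spread between these samples. In RNA of whole cultures, a change in the share of cells that express a gene and a change in its RNA per cell cannot be told apart.

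R1881 raised most of these genes, whether or not Torin 1 was present. Without Torin 1, 40 of the 44 were higher with R1881 than with vehicle and 1 was lower (adjusted p under 0.05). Over all 11517 genes 15.8% were higher and 21.4% lower (1815 and 2468 genes, or 848 and 3720 with median scaling, where 39 members were higher and 1 lower). Under Torin 1, 40 were higher with R1881 and 0 lower, against 18.7% and 26.3% of all genes (1337 higher genes with median scaling, against 2157). The arrays of the 2 groups did not overlap for 41 members higher and 1 lower with R1881, against 20.6% and 26.9% of all genes, and for 41 and 0 under Torin 1, against 21.9% and 30.9%. Of the 44, 38 were higher in both settings. The members were listed as androgen-responsive, so this direction is a description of the list. The median log2 change of the members was 1.66 without Torin 1, or 1.61 with 7 members undetected with vehicle set to their lower bounds, and 1.76 under Torin 1, or 1.74 with 5 members at bounds. The median of all genes was -0.03 and -0.05. Without background correction the member medians were 0.87 and 1.18, and 0.94 and 1.22 in the authors' processed values. Among members detected on at least 1 array of both groups, the changes ran from -0.35 for MED28 to 3.79 for AGR2 without Torin 1, and from -0.17 for MED28 to 4.19 for MAF under it. The fitted rise was at least 2-fold for 30 members without Torin 1 and for 33 with it, where the lower bound of AKAP12 in the first count (1.79-fold) and of AZGP1 in the second (1.84-fold) is below that. Neither these counts nor that of the 38 members higher in both settings were made over all genes, so they have no background share here. These 2 comparisons share no arrays, and across the 44 genes their fitted log2 changes correlated with r = 0.90 (0.80 across all 11517 genes), as a description, since genes on the same arrays are not independent. All 44 were detected on all 3 R1881 arrays, but 7 were detected on no vehicle array and 6 on only 1 or 2. A gene kept by the detection filter only through arrays with R1881 had to be higher there. MAK, AKAP12, AZGP1 and ORM1 were detected on such arrays alone, and ANKH, TRPM8 and IQGAP2 on these and 1 Torin 1 array. ZBTB10 was detected on these, 1 vehicle array and 1 Torin 1 array, so it too was kept only through arrays with R1881. The 29 members detected on all 12 arrays were a subset formed after the values were seen. Of these, 26 were higher and 1 lower with R1881, against 1683 and 2113 of the 8350 genes so detected. Under Torin 1, 26 were higher and 0 lower, against 1927 and 2554 of the 8350 genes.

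**Figure D1:**
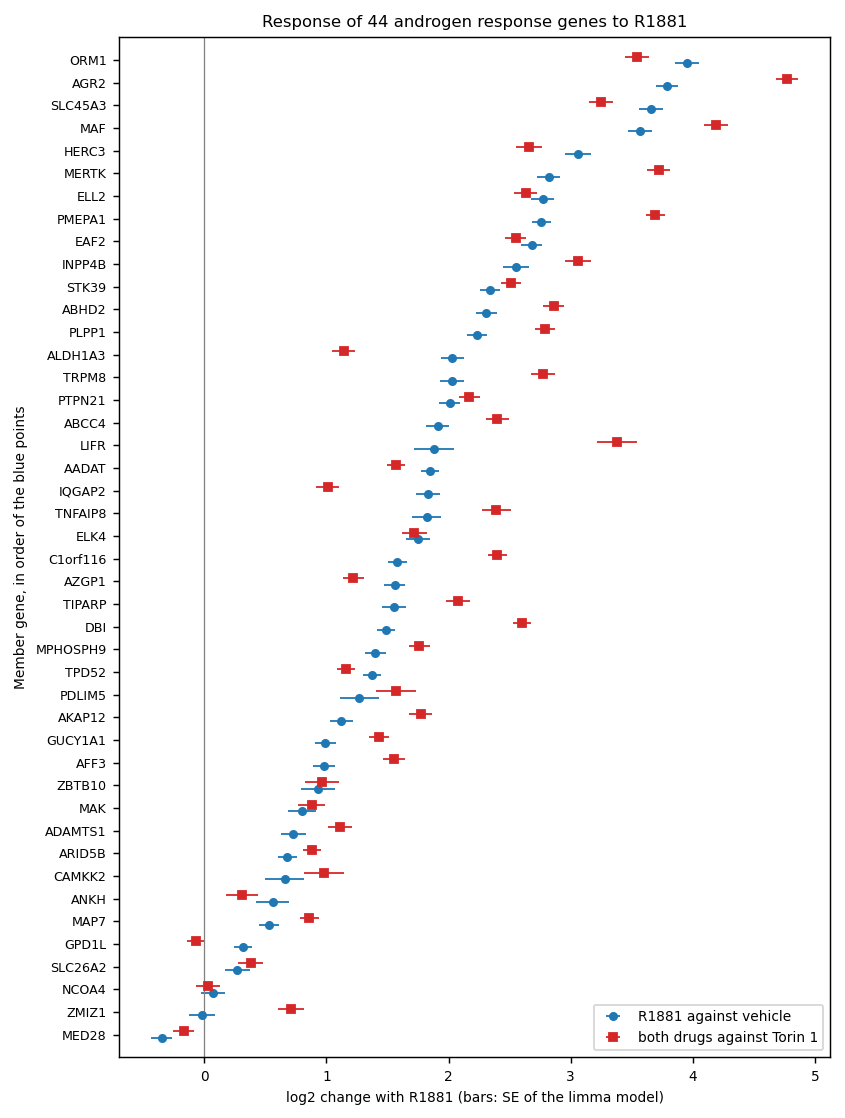
Response to R1881 of the 44 measured genes, ordered by the response without Torin 1. The x axis is the log2 change, blue circles are R1881 against vehicle, red squares are both drugs against Torin 1, and bars are the SE of the limma model. Nearly all points lie right of 0, and the red square lies right of the blue circle for 30 of the 44 genes. Genes undetected in a group without androgen are drawn at their fitted values, which are no measure of size.

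RefSeq promoter windows (GRCh38.p14, from 250 bases before to 50 bases after an annotated start) were at hand for 42 of the 50 genes, 81 windows in all. The full androgen response element, searched on both strands as AGAACA and TGTTCT with any 3 bases between them, was in 0 of the 81 windows and in 1 of all 35116 windows. Its half-site AGAACA, searched on both strands (its reverse complement is TGTTCT, so each full element also holds 2 half-sites), was in 7 of the 81 windows, or 8.64%, against 14.8% of all windows. Per gene, 6 of 42 (14.3%) had a half-site in at least 1 window, against 17.5% of 27305 genes. Of those 6 genes, 5 were measured, and their windows are shown because they span the kinds of response described below: STK39, with log2 rises of 2.34 and 2.51, PMEPA1 and LIFR, which responded more under Torin 1, IQGAP2, which responded less, and TRPM8, which was below detection with vehicle. Capitals mark the half-site, and the strand is that of the gene. The letters are a description of these windows, and the enhancers farther away were not examined.
STK39 chr2:168247546-168247845 (- strand): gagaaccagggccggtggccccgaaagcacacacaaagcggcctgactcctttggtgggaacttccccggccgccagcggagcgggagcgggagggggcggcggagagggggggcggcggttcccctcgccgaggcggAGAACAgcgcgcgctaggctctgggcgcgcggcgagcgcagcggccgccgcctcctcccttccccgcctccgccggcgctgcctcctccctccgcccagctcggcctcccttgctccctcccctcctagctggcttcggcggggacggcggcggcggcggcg
PMEPA1 chr20:57710528-57710827 (- strand): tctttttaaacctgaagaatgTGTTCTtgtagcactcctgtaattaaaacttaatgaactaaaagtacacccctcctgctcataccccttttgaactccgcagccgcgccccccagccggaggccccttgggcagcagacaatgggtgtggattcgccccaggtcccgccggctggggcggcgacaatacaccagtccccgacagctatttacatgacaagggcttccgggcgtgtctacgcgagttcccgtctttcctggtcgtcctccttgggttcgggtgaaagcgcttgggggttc
PMEPA1 chr20:57711423-57711722 (- strand): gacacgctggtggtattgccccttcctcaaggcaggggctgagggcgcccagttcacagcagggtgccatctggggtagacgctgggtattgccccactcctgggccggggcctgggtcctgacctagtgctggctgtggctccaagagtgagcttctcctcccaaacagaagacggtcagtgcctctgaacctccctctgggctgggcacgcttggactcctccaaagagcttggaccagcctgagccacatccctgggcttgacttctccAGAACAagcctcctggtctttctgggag
LIFR chr5:38557418-38557717 (- strand): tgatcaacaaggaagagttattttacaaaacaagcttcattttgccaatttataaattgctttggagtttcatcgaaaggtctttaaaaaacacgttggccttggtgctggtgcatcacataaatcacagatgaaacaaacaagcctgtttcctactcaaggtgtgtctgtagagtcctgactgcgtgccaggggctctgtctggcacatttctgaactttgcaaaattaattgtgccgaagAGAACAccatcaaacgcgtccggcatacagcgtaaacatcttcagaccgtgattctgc
TRPM8 chr2:233979899-233980198 (+ strand): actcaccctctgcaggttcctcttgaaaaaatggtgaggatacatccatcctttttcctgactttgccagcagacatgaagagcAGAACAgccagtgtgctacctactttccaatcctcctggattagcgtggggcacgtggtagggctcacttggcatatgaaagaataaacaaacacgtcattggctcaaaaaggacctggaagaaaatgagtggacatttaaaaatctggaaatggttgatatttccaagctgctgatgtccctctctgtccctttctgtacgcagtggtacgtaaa
IQGAP2 chr5:76547159-76547458 (+ strand): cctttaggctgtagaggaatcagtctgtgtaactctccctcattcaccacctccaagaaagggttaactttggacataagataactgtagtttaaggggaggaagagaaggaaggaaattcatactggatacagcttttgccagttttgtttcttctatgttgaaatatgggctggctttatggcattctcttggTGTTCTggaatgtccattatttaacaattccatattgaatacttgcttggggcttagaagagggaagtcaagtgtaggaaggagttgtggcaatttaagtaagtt
The half-site starts -112 from the start in STK39, -8 in this one of 3 LIFR windows, -166 in this one of 6 TRPM8 windows and -55 in this one of 3 IQGAP2 windows, where -1 is the base before the start. In PMEPA1, which has 4 windows, the first shown has it at -229 and the second at base 23 of the transcript.

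Among the channels and transporters, SLC45A3, or prostein, a membrane transporter of prostate epithelium, had one of the largest responses. Its log2 levels on the 3 arrays of each group were 7.39, 7.71 and 7.51 with vehicle, 11.22, 11.20 and 11.18 with R1881, 8.25, 8.35 and 8.59 with Torin 1 and 11.67, 11.62 and 11.65 with both drugs. The 4 groups did not overlap, and both drugs gave the highest arrays. SLC45A3 rose 12.7-fold with R1881 (log2 3.66 ± 0.0985, adjusted p = 6.17e-12), and Torin 1 raised it both without androgen (log2 0.86 ± 0.0985, adjusted p = 2.57e-05) and with it (log2 0.45 ± 0.0985, adjusted p = 0.0022). TRPM8, the cold-sensing calcium channel, was below detection with vehicle and detected on 1 of 3 arrays with Torin 1. Its levels were 4.50, 4.48 and 4.41 with vehicle, 6.36, 6.51 and 6.62 with R1881, 4.60, 4.58 and 4.86 with Torin 1 and 7.48, 7.54 and 7.32 with both drugs. The 2 groups with R1881 lay above those without it, and both drugs lay above R1881 alone. TRPM8 was at least 3.46-fold higher with R1881 than with vehicle (adjusted p = 2.16e-09), and 1.93-fold higher with both drugs than with R1881 (log2 0.95 ± 0.0986, adjusted p = 4.68e-06). The detection filter kept TRPM8 only through arrays with R1881, so the first of these p-values is no support for its direction. Without background correction its fitted rise with R1881 was 0.78 in log2, below that bound.

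ABCC4 encodes MRP4, an exporter of cyclic nucleotides and drugs. Its levels were 9.11, 9.22 and 9.20 with vehicle, 11.00, 11.03 and 11.25 with R1881, 9.59, 9.48 and 9.35 with Torin 1 and 11.74, 11.99 and 11.89 with both drugs. Both androgen groups lay more than 1 log2 above those without androgen. ABCC4 rose 3.76-fold with R1881 (log2 1.91 ± 0.0966, adjusted p = 3.29e-09) and 5.27-fold under Torin 1 (log2 2.40 ± 0.0966, adjusted p = 2.22e-10). ANKH, a membrane protein that supplies extracellular pyrophosphate, was detected on 0 vehicle arrays and was at least 1.27-fold higher with R1881 (adjusted p = 0.00439; 0.0515 in the authors' processed values). The detection filter kept ANKH too only through arrays with R1881, so these p-values are no support for its direction. Over the alternative settings its fitted rise with R1881 went down to 0.15 in log2, below that bound. Under Torin 1 its change was log2 0.31 ± 0.133, adjusted p = 0.0742. The sulfate transporter SLC26A2 changed by log2 0.27 ± 0.104, adjusted p = 0.0554 with R1881, which did not pass the test, and rose by 0.38 in log2 under Torin 1 (adjusted p = 0.00863; with median scaling 0.21, adjusted p = 0.196). The SLC26A2 change with R1881 passed without vehicle replicate 2, R1881 replicate 2 or Torin 1 replicate 3 (adjusted p 0.0339 to 0.0436).

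All 11 measured genes for receptors, kinases, phosphatases and signalling brakes rose with R1881, and all 11 rose under Torin 1. MAK and AKAP12 were undetected without androgen, and the detection filter kept them only through arrays with androgen, so their direction was fixed in advance. Leaving them out, the rises were 0.66 to 2.82 in log2 without Torin 1 and 0.98 to 3.72 with it. MERTK, a receptor tyrosine kinase of apoptotic cell clearance, gave levels of 5.65, 5.90 and 5.85 with vehicle, 8.78, 8.53 and 8.57 with R1881, 6.62, 6.67 and 6.74 with Torin 1 and 10.28, 10.51 and 10.40 with both drugs. The 4 groups were fully apart, in the order vehicle, Torin 1, R1881, both drugs. MERTK rose 7.08-fold with R1881 (log2 2.82 ± 0.0955, adjusted p = 6.26e-11) and 13.2-fold under Torin 1 (log2 3.72 ± 0.0955, adjusted p = 2.3e-12). Adding Torin 1 to R1881 raised MERTK a further 3.41-fold (log2 1.77 ± 0.0955, adjusted p = 8.92e-09). LIFR, the receptor of leukaemia inhibitory factor, was detected on 2 of 3 vehicle arrays, so its folds depend partly on a dim starting level. Its levels were 5.20, 4.79 and 4.60 with vehicle, 6.93, 6.43 and 6.86 with R1881, 4.92, 4.89 and 5.24 with Torin 1 and 8.59, 8.27 and 8.33 with both drugs. The vehicle and Torin 1 arrays overlapped, and every array with both drugs lay above every R1881 array. LIFR rose 3.68-fold with R1881 (log2 1.88 ± 0.166, adjusted p = 1.02e-06) and was 3.15-fold higher with both drugs than with R1881 (log2 1.66 ± 0.166, adjusted p = 3.42e-06).

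PMEPA1 encodes a membrane protein that restrains TGF-beta signalling. Its levels were 6.43, 6.59 and 6.32 with vehicle, 9.19, 9.18 and 9.24 with R1881, 6.33, 6.35 and 6.41 with Torin 1 and 10.07, 10.02 and 10.07 with both drugs. Vehicle and Torin 1 overlapped, whereas R1881 and both drugs were apart from them and from each other. PMEPA1 rose 6.77-fold with R1881 (log2 2.76 ± 0.078, adjusted p = 9.64e-12) and 12.9-fold under Torin 1 (log2 3.69 ± 0.078, adjusted p = 3.29e-13). Of its other kept probes, one gave 2.36 and 3.34 in log2 and a dim one 0.32 and 0.46. INPP4B removes a phosphate from a PI3K lipid product and was detected on 2 of 3 vehicle arrays. Its levels were 4.76, 4.33 and 4.73 with vehicle, 7.15, 7.19 and 7.11 with R1881, 4.82, 4.97 and 5.06 with Torin 1 and 8.01, 8.00 and 8.03 with both drugs. The groups did not overlap, with both drugs highest. INPP4B rose by 2.55 in log2 with R1881 (adjusted p = 5.31e-10) and was 1.82-fold higher with both drugs than with R1881 (log2 0.86 ± 0.107, adjusted p = 2.18e-05).

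Others of this class had smaller steps between the androgen groups. STK39, the kinase SPAK that acts on ion cotransporters, rose 5.06-fold without and 5.69-fold with Torin 1. PTPN21, a tyrosine phosphatase detected on 1 of 3 vehicle arrays, rose by 2.01 and 2.17 in log2. TNFAIP8, an inhibitor of apoptosis, rose 3.54-fold and 5.23-fold, and GUCY1A1, a subunit of soluble guanylate cyclase, 1.98-fold and 2.69-fold. AKAP12, a scaffold of protein kinase A, was detected on 0 arrays without androgen and was at least 1.79-fold higher with R1881 and at least 2.74-fold under Torin 1. The kinase MAK, named for male germ cells, was likewise detected on 0 arrays without androgen. It was at least 1.5-fold higher with R1881, and at least 1.58-fold with Torin 1 present. Over the alternative settings the fitted log2 rises went down to 0.37 and 0.64 for AKAP12 and 0.26 and 0.27 for MAK. These lie below the bounds given. CAMKK2, which activates AMPK, was dim: it was detected on 2 of 3 arrays with vehicle and with Torin 1, and it rose by 0.66 (adjusted p = 0.00521) and 0.98 in log2. Its other kept probe, detected on 3 arrays, gave 0.20 and 0.13 (adjusted p 0.259 and 0.467 in a limma fit over all kept probes).

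In the transcription class 7 of 10 members rose with R1881 and 1 fell, and 8 rose under Torin 1. The rises include ZBTB10, which the detection filter kept only through arrays with R1881. MAF, a basic leucine zipper factor, moved furthest, with levels of 5.46, 5.64 and 5.67 with vehicle, 9.16, 9.19 and 9.12 with R1881, 4.59, 4.96 and 4.86 with Torin 1 and 8.93, 9.05 and 9.00 with both drugs. Every Torin 1 array lay below every vehicle array, and both androgen groups lay more than 3 log2 above them. MAF rose 11.9-fold with R1881 (log2 3.57 ± 0.0977, adjusted p = 7.2e-12) and 18.3-fold under Torin 1 (log2 4.19 ± 0.0977, adjusted p = 7.85e-13), and its other kept probe, detected on 5 arrays, gave 1.06 and 0.66 in log2. ELL2, a transcription elongation factor, rose 6.81-fold and 6.17-fold. Its partner EAF2 gave levels of 5.30, 5.27 and 5.55 with vehicle, 8.01, 8.04 and 8.13 with R1881, 5.19, 5.20 and 5.05 with Torin 1 and 7.66, 7.73 and 7.69 with both drugs, and the vehicle and Torin 1 arrays again lay below all arrays with androgen. EAF2 rose 6.43-fold with R1881 (log2 2.68 ± 0.0872, adjusted p = 4.02e-11) and was lower with both drugs than with R1881 (log2 -0.36 ± 0.0872, adjusted p = 0.00398).

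AFF3, a nuclear protein of the family that scaffolds elongation complexes, rose 1.97-fold and 2.93-fold. ELK4, an ETS factor that works with SRF, rose 3.36-fold and 3.3-fold, although its 4 kept probes ran from 0.22 to 1.75 in log2 with R1881. ZBTB10, a zinc finger repressor detected on 1 of 3 arrays in each group without androgen, rose by 0.93 and 0.96 in log2. The detection filter kept ZBTB10 only through arrays with R1881, so its direction was largely fixed in advance. ARID5B, a DNA-binding cofactor of a histone demethylase, gave levels of 8.07, 8.30 and 8.21 with vehicle, 8.85, 8.89 and 8.89 with R1881, 8.68, 8.77 and 8.68 with Torin 1 and 9.63, 9.57 and 9.57 with both drugs. It was raised by each drug and was highest with both. R1881 raised it 1.61-fold (log2 0.68 ± 0.0754, adjusted p = 8.74e-06) and Torin 1 1.43-fold (log2 0.52 ± 0.0754, adjusted p = 0.000194).

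ZMIZ1, a PIAS-like coactivator of transcription, did not follow R1881 alone. Its levels were 8.57, 9.07 and 8.78 with vehicle, 8.84, 8.76 and 8.75 with R1881, 9.14, 9.13 and 9.02 with Torin 1 and 9.78, 9.79 and 9.87 with both drugs. R1881 and vehicle overlapped, and all arrays with both drugs lay above the 9 others. The change of ZMIZ1 with R1881 was log2 -0.02 ± 0.106, adjusted p = 0.91 (95% interval -0.25 to 0.21), and under Torin 1 it rose 1.64-fold (log2 0.71 ± 0.106, adjusted p = 9.73e-05). NCOA4, a coactivator of transcription and the carrier of ferritin to autophagy, changed by log2 0.07 ± 0.0982, adjusted p = 0.636 (95% interval -0.14 to 0.28) without Torin 1 and by log2 0.03 ± 0.0982, adjusted p = 0.813 (95% interval -0.18 to 0.25) with it. The Mediator subunit MED28 was the only member that R1881 lowered, with levels of 8.50, 8.45 and 8.49 with vehicle, 8.10, 8.14 and 8.15 with R1881, 8.49, 8.58 and 8.35 with Torin 1 and 8.41, 8.18 and 8.33 with both drugs. Its R1881 arrays lay below all vehicle arrays (log2 -0.35 ± 0.0824, adjusted p = 0.00415), and under Torin 1 the groups overlapped (log2 -0.17 ± 0.0824, adjusted p = 0.109).

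All 7 measured genes of the class named for lipid and intermediary metabolism rose with R1881 and 6 rose under Torin 1. The class was drawn by hand and includes TIPARP, which is not a metabolic enzyme of that kind. DBI, the acyl-CoA binding protein, was raised by androgen and lowered by Torin 1 alone. Its levels were 11.68, 11.73 and 11.76 with vehicle, 13.18, 13.23 and 13.23 with R1881, 10.52, 10.39 and 10.43 with Torin 1 and 13.01, 12.98 and 13.16 with both drugs. Torin 1 arrays were the lowest, and the arrays with both drugs lay just below those with R1881. DBI rose 2.81-fold with R1881 (log2 1.49 ± 0.0737, adjusted p = 2.61e-09) and 6.08-fold under Torin 1 (log2 2.60 ± 0.0737, adjusted p = 6.41e-12), while Torin 1 without androgen lowered it 2.42-fold (log2 -1.28 ± 0.0737, adjusted p = 2.2e-08). The other kept probe of DBI gave 1.76, 2.81 and -1.10 in log2 for the same comparisons.

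ABHD2, a lipid hydrolase, gave levels of 6.12, 6.23 and 6.18 with vehicle, 8.45, 8.54 and 8.47 with R1881, 6.61, 6.48 and 6.65 with Torin 1 and 9.42, 9.28 and 9.60 with both drugs. Its 4 groups did not overlap, with both drugs highest. ABHD2 rose 4.95-fold with R1881 (log2 2.31 ± 0.0881, adjusted p = 1.97e-10), and both drugs exceeded R1881 1.93-fold (log2 0.95 ± 0.0881, adjusted p = 1.61e-06). ALDH1A3, which makes retinoic acid from retinal, went the other way under Torin 1, with levels of 7.20, 7.43 and 7.49 with vehicle, 9.40, 9.47 and 9.35 with R1881, 7.44, 7.19 and 7.42 with Torin 1 and 8.48, 8.43 and 8.55 with both drugs. Both drugs lay between R1881 and the groups without androgen. ALDH1A3 rose 4.09-fold with R1881 (log2 2.03 ± 0.095, adjusted p = 1.54e-09) and 2.2-fold under Torin 1 (log2 1.14 ± 0.095, adjusted p = 3.87e-07), and its other kept probe gave 2.26 and 1.01 in log2. GPD1L, a relative of glycerol-3-phosphate dehydrogenase, gave levels of 8.42, 8.42 and 8.47 with vehicle, 8.75, 8.81 and 8.70 with R1881, 8.51, 8.49 and 8.43 with Torin 1 and 8.49, 8.30 and 8.43 with both drugs. Only its R1881 arrays stood above those of the other 3 groups. GPD1L rose 1.25-fold with R1881 (log2 0.32 ± 0.0736, adjusted p = 0.00401; with median scaling 0.12 in log2, adjusted p = 0.457), and its change under Torin 1 was log2 -0.07 ± 0.0736, adjusted p = 0.476 (95% interval -0.23 to 0.09). PLPP1, a lipid phosphate phosphatase, rose 4.68-fold and 6.9-fold, AADAT, an aminotransferase of lysine and kynurenine breakdown, 3.61-fold and 2.98-fold, and TIPARP, a mono-ADP-ribosyltransferase, 2.93-fold and 4.22-fold.

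All 4 measured scaffold and cytoskeleton genes rose in both settings. The detection filter kept IQGAP2 only through arrays with R1881, so its direction was largely fixed in advance. IQGAP2, a scaffold that binds actin and calmodulin, was detected on 0 vehicle arrays and 1 Torin 1 array, with levels of 4.47, 4.55 and 4.55 with vehicle, 6.38, 6.32 and 6.36 with R1881, 4.62, 4.97 and 4.64 with Torin 1 and 5.67, 5.87 and 5.72 with both drugs. Both drugs lay below R1881 on every array and above the groups without androgen. IQGAP2 was at least 3.13-fold higher with R1881 than with vehicle (adjusted p = 4.96e-09) and 1.51-fold lower with both drugs than with R1881 (log2 -0.60 ± 0.0963, adjusted p = 0.000201). The first of these p-values is no support for its direction. Over the alternative settings its fitted rise with R1881 went down to 0.68 in log2, below that bound. MPHOSPH9, a centriole protein, gave levels of 6.92, 6.86 and 6.84 with vehicle, 8.28, 8.27 and 8.28 with R1881, 6.43, 6.71 and 6.61 with Torin 1 and 8.20, 8.41 and 8.41 with both drugs. R1881 and both drugs overlapped, and Torin 1 arrays were the lowest. MPHOSPH9 rose 2.64-fold with R1881 (log2 1.40 ± 0.0872, adjusted p = 2.74e-08) and 3.38-fold under Torin 1. MAP7, which recruits kinesin to microtubules, rose 1.44-fold and 1.81-fold. PDLIM5, a PDZ and LIM adaptor detected on 2 of 3 vehicle and 1 of 3 Torin 1 arrays, rose by 1.27 and 1.57 in log2.

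All 5 genes of the secretory pathway or of secreted proteins rose in both settings. The detection filter kept ORM1 and AZGP1 only through arrays with androgen, so their direction was fixed in advance. ORM1, an acute-phase plasma protein, was detected on 0 of the 6 arrays without androgen. Its levels were 4.40, 4.29 and 4.45 with vehicle, 8.20, 8.46 and 8.32 with R1881, 4.33, 4.28 and 4.49 with Torin 1 and 8.04, 7.88 and 7.78 with both drugs. Both drugs lay below R1881 on every array. ORM1 was at least 12.3-fold higher with R1881 (adjusted p = 2.3e-12) and at least 9.04-fold under Torin 1 (adjusted p = 4.6e-12). These p-values are no support for that direction. Without background correction its fitted rise with R1881 was 2.05 in log2, below that bound. AGR2, a protein disulfide isomerase, was detected on all vehicle arrays and on 0 Torin 1 arrays, with levels of 4.79, 4.70 and 4.97 with vehicle, 8.62, 8.56 and 8.64 with R1881, 4.64, 4.40 and 4.49 with Torin 1 and 9.35, 9.26 and 9.22 with both drugs. The groups without androgen lay near the background, and both drugs gave the highest arrays. AGR2 rose 13.8-fold with R1881 (log2 3.79 ± 0.0889, adjusted p = 1.6e-12) and was at least 23.5-fold higher under Torin 1 (adjusted p = 1.34e-13). Over the alternative settings its fitted rises went down to 2.11 in log2 with R1881 and 2.65 under Torin 1. Its other kept probe, detected on 4 arrays, gave 0.60 and 0.54 in log2, so the size of the AGR2 response differs between probes.

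TPD52, a protein of vesicle traffic, gave levels of 6.47, 6.41 and 6.48 with vehicle, 7.88, 7.78 and 7.83 with R1881, 6.36, 6.21 and 6.23 with Torin 1 and 7.38, 7.51 and 7.39 with both drugs. Both drugs lay below R1881 on every array. TPD52 rose 2.59-fold with R1881 (log2 1.37 ± 0.0742, adjusted p = 6.65e-09) and 2.23-fold under Torin 1. AZGP1, zinc-alpha-2-glycoprotein, was detected on 0 arrays without androgen. R1881 gave at least 2.33-fold more of it alone and at least 1.84-fold more with Torin 1. Over the alternative settings the fitted rises of AZGP1 went down to 0.55 and 0.41 in log2, below those bounds. ADAMTS1, a secreted metalloprotease, rose 1.66-fold and 2.16-fold. The ubiquitin ligase HERC3 gave levels of 5.06, 4.84 and 5.07 with vehicle, 8.12, 8.09 and 7.91 with R1881, 5.10, 5.21 and 5.21 with Torin 1 and 7.92, 7.96 and 7.61 with both drugs. R1881 and both drugs overlapped, far above the other groups. HERC3 rose 8.32-fold with R1881 (log2 3.06 ± 0.105, adjusted p = 6.98e-11) and 6.32-fold under Torin 1 (log2 2.66 ± 0.105, adjusted p = 1.78e-10). C1orf116, also called specifically androgen-regulated gene protein, gave levels of 9.28, 9.31 and 9.28 with vehicle, 10.84, 10.91 and 10.86 with R1881, 9.02, 8.89 and 9.08 with Torin 1 and 11.37, 11.31 and 11.51 with both drugs. Its 4 groups were apart, with Torin 1 lowest and both drugs highest. C1orf116 rose 2.99-fold with R1881 (log2 1.58 ± 0.078, adjusted p = 2.61e-09) and 5.29-fold under Torin 1 (log2 2.40 ± 0.078, adjusted p = 2.55e-11), and its 3 kept probes ran from 1.58 to 2.20 in log2 with R1881. Both drugs against R1881 gave 0.53 with this probe (adjusted p = 9.58e-05) but -0.04 and 0.14 with the others (adjusted p 0.83 and 0.349 in a limma fit over all kept probes).

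**Figure D2:**
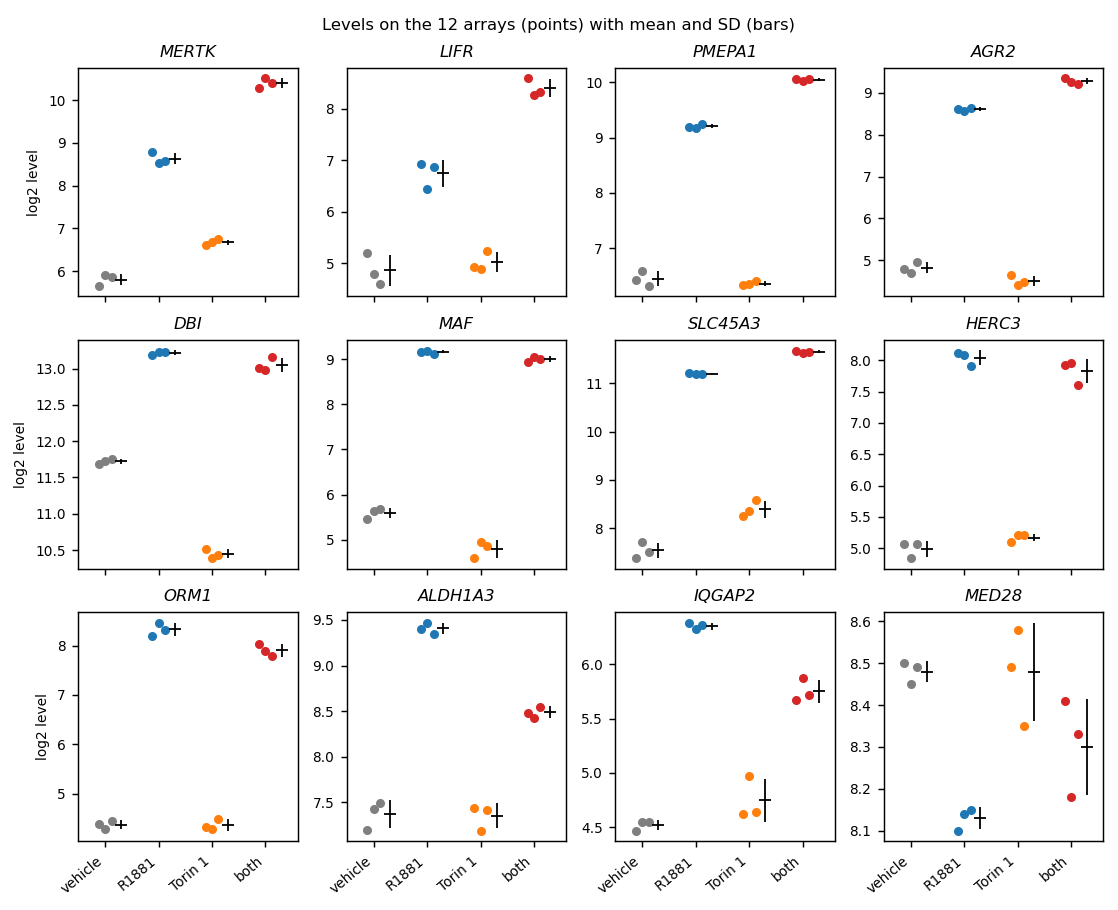
Normalized log2 level of 12 of the genes on every array, by group (vehicle, R1881, Torin 1, both drugs). Points are arrays and the bars beside them are the mean and SD of n = 3, and each panel has its own y axis. MERTK, LIFR, PMEPA1 and AGR2 were highest with both drugs, ALDH1A3 and IQGAP2 were highest with R1881 alone, and MED28 was lowest with R1881.

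Torin 1 without androgen raised some of these genes and lowered others, most by little. Of the 44, 8 were higher than with vehicle and 5 lower, against 16.2% and 15.6% of all genes, so the share called higher (8 of 44) was near the background. With median scaling 4 members were higher and 5 lower, and over all genes 801 higher and 1980 lower, against 1865 and 1802. The arrays did not overlap for 12 members higher and 9 lower, against 23.7% and 21.8%. No member rose by 2-fold. The rises were MERTK (0.87 in log2), SLC45A3 (0.86), ARID5B (0.52), ABHD2 (0.40), INPP4B (0.35), ABCC4 (0.30), ELL2 (0.26) and MAP7 (0.24). The falls were DBI (-1.28), MAF (-0.79), AGR2 (at least 1.07-fold lower, since it was undetected with Torin 1), MPHOSPH9 (-0.29) and C1orf116 (-0.29). The median of the members was 0.05 and that of all genes 0.02. Of these 13 calls, 5, those of MERTK, SLC45A3, ARID5B, DBI and MAF, held under all alternative settings run for them, 23 each and 22 for MAF, which was not detected on all 12 arrays. The count of rises was 5 without any 1 of Torin 1 replicates 1, 2 and 3, and the falls were 3 without Torin 1 replicate 2. ELL2 lost its call without any of 9 arrays (adjusted p 0.0568 to 0.182), and ABCC4 without any vehicle array or Torin 1 replicate 1 or 2 (0.0519 to 0.117). MAP7 lost it without vehicle replicate 1 or any Torin 1 array (0.0559 to 0.138), INPP4B without vehicle replicate 2 or Torin 1 replicate 2 or 3 (0.0673 to 0.0986), and AGR2 without vehicle replicate 3 or Torin 1 replicate 2 or 3 (0.0523 to 0.0772). MPHOSPH9 lost it without vehicle replicate 1 or Torin 1 replicate 1 (0.0716 and 0.0931), and C1orf116 without Torin 1 replicate 2 (0.0524). With median scaling ABHD2 (0.0702), ABCC4 (0.593), MAP7 (0.676), ELL2 (0.349) and AGR2 (0.0609) lost their calls. In the authors' processed values AGR2 (0.362), ELL2 (0.218), INPP4B (0.183) and MPHOSPH9 (0.0851) lost theirs. AGR2 also lost it when its kept probes were averaged (0.222).

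In androgen-treated cells Torin 1 raised more of these genes than it lowered. With both drugs 23 of 44 were higher than with R1881 alone and 7 were lower, against 23.1% and 22.3% of all genes. The arrays did not overlap for 24 members higher and 10 lower, against 26.9% and 25.6%. The median change was 0.28, and 0.01 for all genes. MERTK (1.77 in log2), LIFR (1.66) and ZMIZ1 (1.02) rose by 2-fold or more. The falls were ALDH1A3 (-0.92), IQGAP2 (-0.60), ORM1 (-0.43), TPD52 (-0.40), EAF2 (-0.36), GPD1L (-0.35) and AZGP1 (-0.32). By class, 9 of 11 signalling genes rose and 0 fell, 4 of 5 channels and transporters rose and 0 fell, and of the 5 secretory genes AGR2 and ADAMTS1 rose and 3 fell. In the metabolism class PLPP1, ABHD2 and TIPARP rose and ALDH1A3 and GPD1L fell. The highest group mean was that of both drugs for 29 members, R1881 alone for 14, vehicle for 1 and Torin 1 alone for 0. For 23 members all 3 arrays with both drugs lay above the 9 others, and for 10 all 3 R1881 arrays did. These 2 orders of the arrays were found for 10.0% and 7.44% of all genes. The highest group mean was not counted over all genes, so the counts by mean have no background share here. The AGR2 rise was 0.15 in log2 (adjusted p = 0.531) when its 2 kept probes were averaged. The other kept probe of GUCY1A1 gave 0.04 (adjusted p = 0.761 over all kept probes), and the mean of both 0.16 (adjusted p = 0.0873). GUCY1A1 lost its call without R1881 replicate 2 or 3 or both-drug replicate 3 (adjusted p 0.062 to 0.0828), ADAMTS1 without R1881 replicate 2 or both-drug replicate 2 (0.0508 and 0.0638), and SLC26A2 without R1881 replicate 2 (0.051). With median scaling 18 were higher, since STK39, PTPN21 and those 3 genes fell short.

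**Figure D3:**
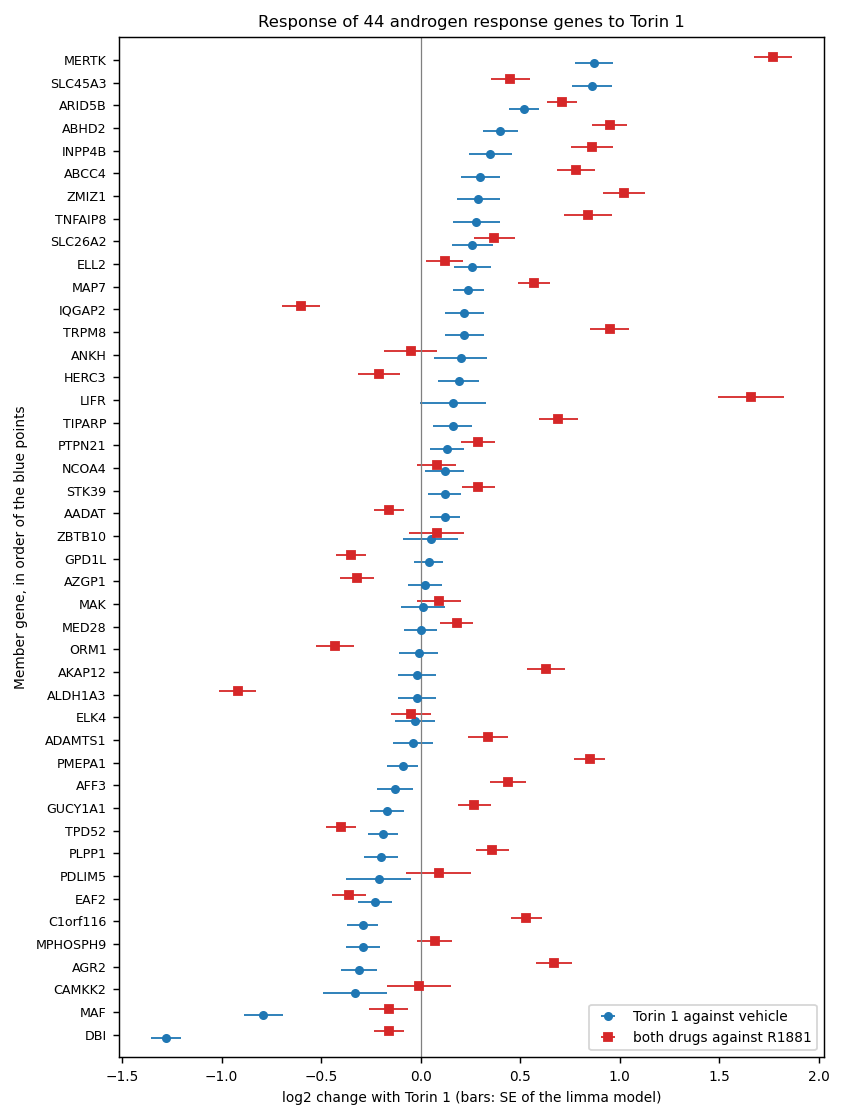
Response to Torin 1 of the same 44 genes, ordered by the response without androgen. The x axis is the log2 change, blue circles are Torin 1 against vehicle, red squares are both drugs against R1881, and bars are the SE of the limma model. Most blue circles lie within 0.3 of 0, while the red squares run from -0.92 for ALDH1A3 to 1.77 for MERTK.

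The interaction tests whether the response to R1881 differed with and without Torin 1. It was called for 21 of 44 members, 18 with a larger and 3 with a smaller response under Torin 1, against 7.87% and 7.09% of all genes (906 and 816 genes, or 546 and 271 with median scaling, where 13 members had a larger and 2 a smaller response). Without background correction 20 members had a larger and 7 a smaller response. Of the 18, TRPM8 and AKAP12, were undetected with vehicle, so their response without Torin 1 has only a lower bound and neither the size nor the direction of the difference was measured. The members' median was 0.31 in log2 and that of all genes -0.01. Among the called members detected on at least 1 array of every group, LIFR had the largest difference (log2 1.50 ± 0.235, adjusted p = 0.000945), with a response of 1.88 in log2 without and 3.38 with Torin 1. DBI followed (log2 1.11 ± 0.104, adjusted p = 1.55e-05), and its larger response came with the lower level under Torin 1 without androgen, as its levels above show. PMEPA1 (log2 0.93 ± 0.11, adjusted p = 0.000101), MERTK (log2 0.90 ± 0.135, adjusted p = 0.000709) and C1orf116 (log2 0.82 ± 0.11, adjusted p = 0.00029) also had larger responses. AGR2 was called (adjusted p = 0.000202), but it was undetected with Torin 1, so the size of its difference was not measured. The smaller responses were those of ALDH1A3 (log2 -0.89 ± 0.134, adjusted p = 0.000709), IQGAP2 (adjusted p = 0.0014; undetected with vehicle, so its size was not measured) and GPD1L (log2 -0.39 ± 0.104, adjusted p = 0.0246). By class, a larger response was called for 7 of 11 signalling genes, 4 of 7 genes of the metabolism class and 0 of 4 scaffold genes. The 7 include AKAP12, for which the direction was not measured.

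Of the 21 interaction calls, 13 held under all settings run for them, 23 each and 22 for TRPM8, LIFR, AKAP12 and IQGAP2, those of AFF3, ZMIZ1, PLPP1, ABHD2, ALDH1A3, DBI, TRPM8, MERTK, LIFR, PMEPA1, AKAP12, IQGAP2 and C1orf116. INPP4B lost its call without any of 10 arrays (adjusted p 0.0579 to 0.0812; it was kept without vehicle replicate 2 or Torin 1 replicate 3), TNFAIP8 without any of 8 (0.0567 to 0.0909) and ABCC4 without any of 8 (0.0567 to 0.0751). GUCY1A1 lost it without any of 6 arrays (0.0518 to 0.066), GPD1L without R1881 replicate 2, Torin 1 replicate 1 or 2 or both-drug replicate 2 (0.0518 to 0.0613), and TIPARP without Torin 1 replicate 2 or 3 or both-drug replicate 1 (0.0511 to 0.0539). With kept probes averaged, the interaction was 0.11 for MAF (adjusted p = 0.671) and 0.46 for AGR2 (adjusted p = 0.26). The other kept probes of C1orf116 gave 0.07 (adjusted p = 0.854) and 0.68 (adjusted p = 0.0171) in the fit over all kept probes. For LIFR, INPP4B and MAF at least 1 group without androgen was detected on only 2 of 3 arrays, so the size of the difference depends partly on dim signals. For 23 members the test was not passed, which does not show equal responses: the 95% interval per gene, not adjusted over genes, was -0.33 to 0.28 for ELK4, -0.08 to 0.42 for STK39, -0.43 to 0.15 for ELL2, -0.71 to -0.11 for SLC45A3 and -0.17 to 0.80 for CAMKK2.

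**Figure D4:**
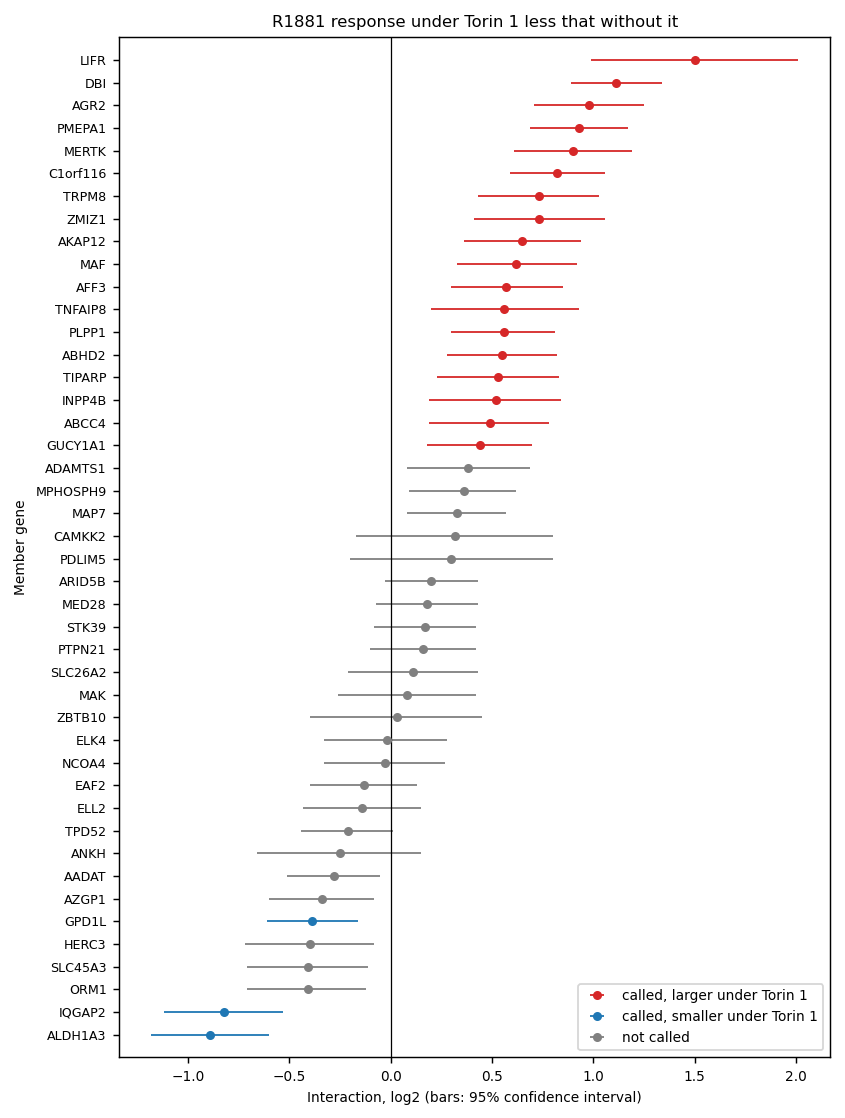
Interaction of R1881 and Torin 1 for the 44 genes, ordered by size. The x axis is the log2 response to R1881 with Torin 1 present minus that in its absence, and bars are 95% confidence intervals per gene, not adjusted over genes, so some grey bars leave out 0. Red points are the 18 called larger responses, blue points the 3 called smaller ones, and grey points were not called. TRPM8, AKAP12, IQGAP2, AGR2, ANKH, MAK, AZGP1 and ORM1, undetected in a group without androgen, are drawn at fitted values, which do not measure the size. For TRPM8 and AKAP12, drawn in red, the direction was not measured either.

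Another 61 genes of the androgen response, listed from general knowledge and with earlier results known, were counted beside these, and 54 were measured. With R1881, 42 were higher and 2 lower (median log2 0.90), against 15.8% and 21.4% of all genes. Under Torin 1, 43 were higher and 2 lower (median 1.21), against 18.7% and 26.3%. Among the smallest p-values with R1881 were NDRG1, a stress and differentiation gene (log2 4.33 ± 0.0804), KLK2, a kallikrein protease, and TMPRSS2, a membrane protease. With Torin 1 alone 10 were higher and 18 lower, against 16.2% and 15.6% of all genes, so the share called higher was near the background. The smallest p-values with Torin 1 alone were falls of INSIG1, which restrains SREBP processing (-2.79 ± 0.106), HMGCS1, an enzyme of sterol synthesis (-1.84 ± 0.0994), and SCD, a fatty acid desaturase (-1.38 ± 0.0826). With both drugs against R1881, 25 were higher and 17 lower, against 23.1% and 22.3% of all genes. In that comparison STEAP4, a metalloreductase, rose by 1.47 ± 0.0914 in log2. The interaction was called larger for 19 and smaller for 7 of the 54 (median 0.20), against 7.87% and 7.09% of all genes. The lists were chosen by hand, so their counts are given side by side with no test between them.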

How the data were processed

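Total RNA of LNCaP cells was read on Illumina HumanHT-12 V4 arrays, 12 arrays in 4 groups of 3. The deposited table holds the bead summary intensity of 47323 probes per array, and per the file headers a detection p-value for each intensity; neither background subtraction nor scaling between arrays was visible in it. The authors also deposited a table of log2 values, with its normalization left unstated; its 12 columns each matched their own array best (lowest r = 0.997).

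Intensities were background-corrected by normexp with the detection p-values (offset 16), then quantile normalized and log2-transformed with limma 3.58.1 in R 4.3.3. Probes with detection p under 0.05 on at least 3 arrays were kept (20413); 15137 had 1 gene symbol, 2 had several and 5274 had none. Each gene was represented by its brightest probe, and no probe's level was compared with another's. Symbols were updated through Entrez ID for 30074 of 30121 annotation rows. One limma model of 4 group means (8 residual degrees of freedom) was fitted over 11517 genes, with Benjamini-Hochberg adjustment over all of them; adjusted p under 0.05 was called, and ± is the SE of the model. An exact permutation test of 3 against 3 arrays cannot go below p = 0.1. A gene detected on no array of a group has only a lower bound of its fold, set from the lowest signal detected. Such a bound holds for this background correction alone. The fit was tested on simulated data.

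Same-numbered arrays of different groups did not deviate together (mean r -0.00318 over 18 pairs, -0.135 to 0.18), so replicate number was left out. The members and the lists were chosen with earlier results of these data known. Array values are given for the non-overlapping called genes with the largest change in each comparison, up to 6 each way, and for up to 6 each way in the interaction; other members are given by their changes. Alternatives covered scaling, background correction, detection filter, probe choice, the deposited log2 table, moderation, a replicate block and each array left out. The arrays' number limits the precision.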

Additional observations from a re-analysis of the deposited data

Results flagged for a closer look

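The response to R1881 differed with and without Torin 1 for 21 of the 44 genes by the interaction term of the limma model (log2 response with Torin 1 present minus that in its absence, adjusted p under 0.05). Over all genes 7.87% were called larger and 7.09% smaller. Of the 21 calls, 8 were lost under at least 1 alternative setting, those of MAF, GPD1L, TIPARP, ABCC4, GUCY1A1, INPP4B, TNFAIP8 and AGR2. Groups of 3 arrays were not tested for outlying samples. Among signalling genes the differences were 1.50 for LIFR, 0.93 for PMEPA1, 0.90 for MERTK, 0.65 for AKAP12, 0.56 for TNFAIP8, 0.52 for INPP4B and 0.44 for GUCY1A1. In the metabolism class they were 1.11 for DBI, 0.56 for PLPP1, 0.55 for ABHD2, 0.53 for TIPARP, -0.39 for GPD1L and -0.89 for ALDH1A3. The transcription genes ZMIZ1, MAF and AFF3 gave 0.73, 0.62 and 0.57. The channel TRPM8 gave 0.73 and the exporter ABCC4 0.49. AGR2 gave 0.98, C1orf116 0.82 and the scaffold IQGAP2 -0.82. The values of TRPM8, AKAP12, IQGAP2 and AGR2 are fitted against a group without androgen in which the gene was detected on 0 arrays, so they do not measure a size, and for TRPM8 and AKAP12 the direction was not measured either.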

How the results depend on the processing

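Over 23 alternative settings, or 22 for the 15 members not detected on all 12 arrays, 167 of 220 results (44 genes in 5 comparisons) kept their call throughout, 53 gained or lost it under at least 1 setting and 0 reversed. Calls kept throughout numbered, over the settings run for each gene, 39 of 41 for R1881 against vehicle, 5 of 13 for Torin 1 against vehicle, 24 of 30 for both drugs against R1881, 39 of 40 for both drugs against Torin 1 and 13 of 21 for the interaction. For Torin 1 against vehicle the higher members numbered 4 with median scaling and 5 with cyclic loess, against 8, and the lower ones 3 in the authors' processed values, against 5; leaving out 1 array gave 5 to 8 higher and 3 to 5 lower. For both drugs against Torin 1 the lower members numbered 2 in the authors' values and 0 to 1 with 1 array left out, against 0. The interaction gave 7 smaller responses without background correction, against 3. Restricting to genes detected on all 12 arrays, an alternative chosen after seeing the data, left 29 members among 8350 genes. With R1881 26 members were higher (1683 of all these genes), and under Torin 1 26 (1927 of all). With both drugs 4 members were lower than with R1881 (2229 of all), by construction from fewer genes. Causes of the other changes were not tested. Median scaling moved the median of all genes to -0.18 for R1881 against vehicle and -0.16 for both drugs against Torin 1, with member medians of 1.54 and 1.61. With the replicate number as a block the member counts were 40 higher and 1 lower with R1881, 8 and 5 with Torin 1, 23 and 7 for both drugs against R1881, 40 and 0 under Torin 1, and 17 and 3 for the interaction, where TNFAIP8 lost its call (adjusted p = 0.0622); for 4 of 12 arrays the best correlation was with an array of the same number. A slide block was not run, since the headers give no slide. Levels near the background limit the folds of dim genes.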
